A study of Mus musculus with 5 samples.

Results

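Of the 171 microRNA probes on these arrays, 7 are described here, chosen by their numbers: 1org-290, 1org-291-s, 1org-291-as and 1org-292-as of a stem cell cluster, 1org-296 and 1org-298 of the imprinted Gnas region, and 1org-297, which is linked to repeats. The choice was made with the day 3 and day 10 values known, and the difference between those times is therefore given as a description, without a test. Total RNA of activated mouse CD4+25- T cells was hybridised together with RNA of CD4+25- T cells that had not been activated (called naive) on 5 arrays of 2 channels. The activated cells had been activated overnight (1 array, activated RNA in Cy5), for 3 days (2 arrays, in Cy5 on the first and in Cy3 on the second) or for 10 days (2 arrays, likewise). The labels give the same kind of cell, CD4+25- (helper T cells without CD25), for both RNAs of an array. They do not say whether the activated cells still lacked CD25 when the RNA was taken. Strain, age and number of mice, the means of activation and whether the arrays of a pair held separate extracts are not stated in the labels used here. As whole populations were measured, fewer cells with a microRNA and less of it per cell cannot be told apart.

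MicroRNAs are short RNAs that pair, mainly through the seed at bases 2 to 8, with messenger RNAs and lower their output. The miR-290 to miR-295 cluster is made as a single primary transcript, is abundant in mouse embryonic stem cells and early embryos, and falls silent as cells differentiate. Most of its 3' arms carry seeds related to those of the miR-302 and miR-17 families, which promote passage through the cell cycle. MiR-296 and miR-298 lie close together beside the imprinted Gnas locus, and miR-297 belongs to a multicopy group with copies in an intron of Sfmbt2, itself an imprinted gene of the placenta.

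The mature sequences of the stem cell cluster are shown first because shared seeds set which of its members could act on the same targets. They were read from RefSeq (GRCm38.p6), where the cluster spans chr7:3218626-3220841 on the plus strand, 2216 bases, and lies within the span of the gene Nlrp12. Capitals mark the seed.
miR-290a-5p: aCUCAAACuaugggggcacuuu
miR-292a-5p: aCUCAAACugggggcucuuuug
miR-291a-5p: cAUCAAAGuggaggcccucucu
miR-290a-3p: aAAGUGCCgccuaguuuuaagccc
miR-291a-3p: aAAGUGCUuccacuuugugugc
miR-294-3p: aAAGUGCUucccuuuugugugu
miR-295-3p: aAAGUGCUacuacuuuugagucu
miR-293-3p: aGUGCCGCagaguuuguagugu
miR-302b-3p: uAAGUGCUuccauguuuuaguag
miR-17-5p: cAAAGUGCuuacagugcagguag

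The 5' arms of miR-290a and miR-292a share the seed CUCAAAC, found in 3 of the 1679 mature sequences of the table. The 3' arms of miR-291a, miR-294 and miR-295 share AAGUGCU with miR-302b, a seed of 5 mature sequences. The core AAGUGC stood at bases 2 to 7 of 8 mature sequences (0.48%), and at bases 3 to 8 of another 8, miR-17-5p among them, whose seed is therefore shifted by 1 base. The 3' arm of miR-293 is an exception within the cluster: its seed, GUGCCGC, was found once in the table and holds no AAGUGC. The 3' arm of miR-292a was not matched. The probe 1org-290 is annotated with the gene now called Mir290a, and the 3 other cluster members have no annotated gene and were matched by number. In older microRNA names, s and as mark opposite arms of a hairpin, but which arm a probe reads is not stated in the files used here.

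The pair beside Gnas is shown with both arms, since neither probe ID names an arm. The hairpins lie on the minus strand at chr2:174267047-174267125 (Mir296) and chr2:174267504-174267585 (Mir298), with 378 bases between them.
miR-296-5p: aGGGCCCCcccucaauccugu
miR-296-3p: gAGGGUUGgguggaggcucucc
miR-298-5p: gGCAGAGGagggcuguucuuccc
miR-298-3p: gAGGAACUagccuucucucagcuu

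Each of these 4 seeds was found once in the table, so by seed the pair forms no family with each other or with the stem cell cluster. The probe 1org-298 is annotated with 2 genes, those of miR-298 and miR-299, and mir-298 is also an older synonym of the miR-299 gene on chromosome 12. It is therefore called by its probe ID here. The probe 1org-296 has no annotated gene.

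The hairpin of a miR-297 copy shows its repeat character (Mir297-1, chr7:10958437-10958512, minus strand), with each AUGU in capitals.
Mir297-1: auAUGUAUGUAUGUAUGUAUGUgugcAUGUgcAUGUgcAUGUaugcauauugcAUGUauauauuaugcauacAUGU

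It holds 10 copies of AUGU in 76 bases, 5 of them end to end, and 2 of the 1005 hairpins in the table, this one included, hold as many. Purine and pyrimidine alternate at 97.3% of its steps, the highest share of the 1005 hairpins. RefSeq lists 6 genes of this group, of which 5 lie within Sfmbt2 on chromosome 2. No mature miR-297 was matched, and 1org-297 has no annotated gene and may read more than 1 copy.

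The deposited table holds a log ratio for every probe on every array, read here as log2 of Cy5 over Cy3, which is likely but not stated. Values were multiplied by -1 where Cy3 held the activated RNA, so that a positive value means more in activated than in naive cells, and every direction would turn if Cy3 had been the numerator. Before turning, the arrays of a pair correlated at r = -0.66 (day 3) and r = -0.43 (day 10) over the 171 probes. The arrays differ in their middle: the median of the turned log2 ratios was -1.75 overnight, 0.20 (Cy5) and 1.42 (Cy3) at day 3, and -0.51 (Cy5) and -0.38 (Cy3) at day 10. These shifts are as large as many single values, so each result is given as deposited and again with the median of the array taken off (centred). Detection above background is not known for any probe, and the number of arrays limits the precision. As a check of the labels, miR-155 is known to rise and miR-150 to fall when lymphocytes are activated. At day 3 1org-155 read 4.89 and 4.87 and 1org-150 read -5.86 and -4.63. At day 10 1org-155 read 0.47 and 0.22 and 1org-150 read -1.33 and -1.24, with centred means of 0.80 and -0.84. For 1org-155 and 1org-150 the check is therefore weaker at day 10. A further T cell reference probe, 1org-181, read -5.37 and -3.69 at day 3 and -3.48 and -3.57 at day 10. Overnight 1org-181 read -1.55, or 0.20 after centring. Day 10 minus day 3 was -4.53 for 1org-155, or -3.28 after centring. On the overnight array 1org-155 and 1org-150 read 0.05 and -0.28, and after centring 1.80 and 1.47, so that there 1org-150 lay above the array median.

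The members fell into 3 patterns. 1org-298 and 1org-297 were far above naive at day 3 and back near the array median at day 10. 1org-296 was the only member above naive on both day 10 arrays. After centring, the stem cell cluster members lay at most 1.03 from the array medians on the day 3 and day 10 arrays, apart from a single high value of 1org-292-as. A probe was called higher or lower than naive at a time where its mean was at least 2-fold from 0 (1 on the log2 scale) and the arrays of the pair had 1 sign. It was called between times where the means differed by at least 2-fold and the pairs did not overlap.

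**Figure D1:**
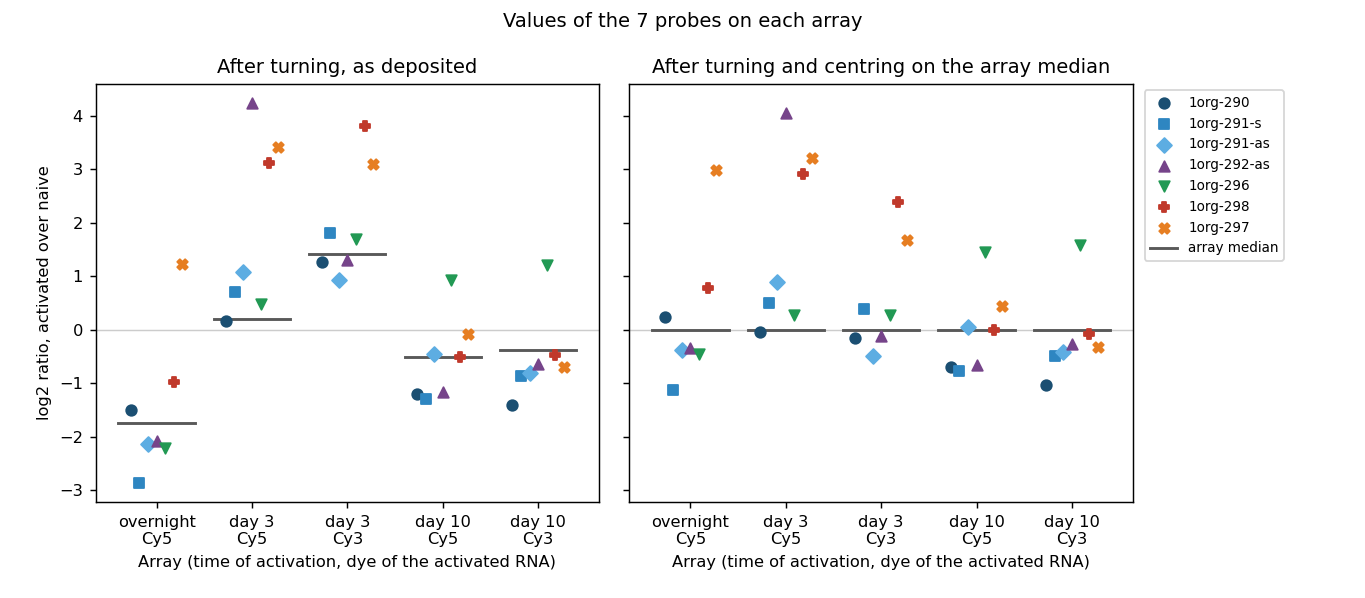
Log2 ratio of activated over naive RNA (vertical axis) for the 7 probes on each of the 5 arrays (horizontal axis), as deposited after turning (left) and after centring (right). Each symbol is a probe on 1 array and each bar is that array's median over 171 microRNA probes. After centring, 1org-298 and 1org-297 stand above 1.6 on both day 3 arrays, 1org-296 above 1.4 on both day 10 arrays, and 1org-292-as at 4.04 on a single array.

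As deposited, 6 of the 7 members were called lower at day 10 than at day 3 and 0 higher, where 41.5% of all microRNA probes were called lower and 12.9% higher. The median difference (day 10 minus day 3) was -2.33 over the members and -1.22 over all probes. After centring, 4 members were called lower and 1 higher, beside 13.5% and 28.1% of all probes, with medians of -1.07 and 0.04. The 4 were 1org-298, 1org-297, 1org-292-as and 1org-291-s, and the member that was higher was 1org-296. Since this contrast was in view when the members were chosen, nothing is read from these counts.

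**Figure D2:**
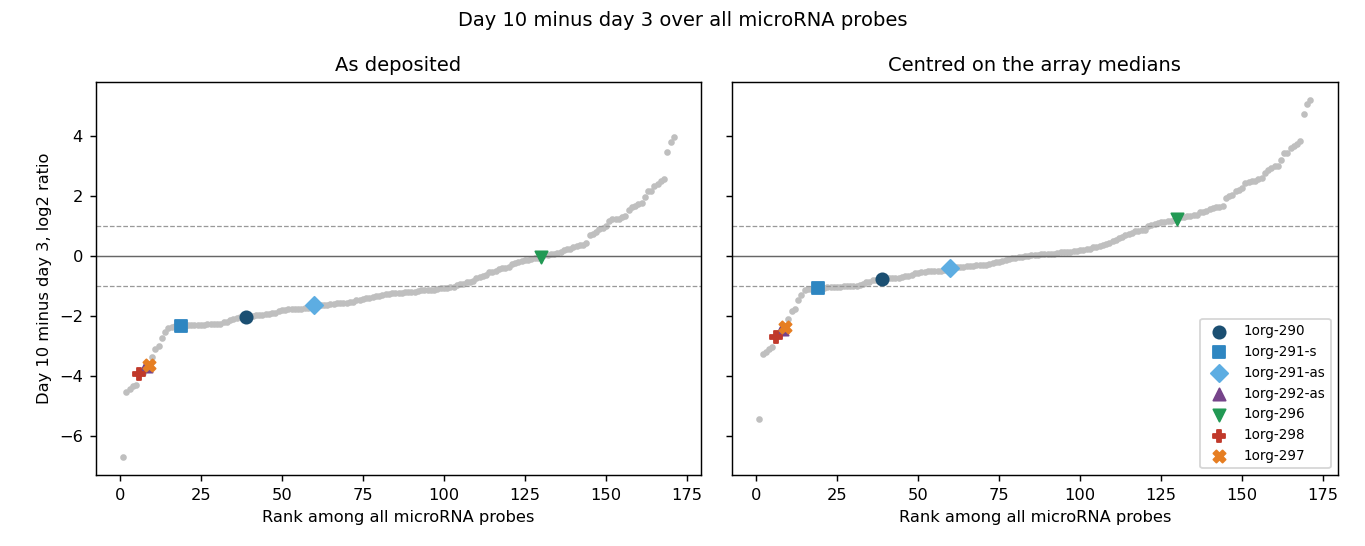
Difference of the day 10 and day 3 mean log2 ratios (vertical axis) for 171 microRNA probes in rank order (horizontal axis), as deposited (left) and centred (right), with the 7 members in colour and the 2-fold lines dashed. 1org-298, 1org-292-as and 1org-297 hold ranks 6, 8 and 9 from the lowest in both panels, and 1org-296 rank 130.

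Against naive cells at day 3, 6 members were called higher and 0 lower as deposited, beside 38% and 12.9% of all probes. After centring, 2 were higher (1org-298 and 1org-297) and 0 lower, beside 15.2% and 19.9%. At day 10, 1 member was higher (1org-296) and 2 lower (1org-290 and 1org-291-s) as deposited, beside 9.94% and 17% of all probes. After centring 1org-296 stayed higher and 0 were lower, beside 14.6% and 4.09%. On the overnight array, where a call rests on a single value, 1 member was at least 2-fold higher (1org-297) and 5 lower, beside 4.09% and 73.1%. After centring 1 was higher (1org-297) and 1 lower (1org-291-s), beside 21.6% and 4.09%.

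Among the stem cell cluster probes, 1org-290 read 0.16 (Cy5) and 1.27 (Cy3) at day 3 and -1.21 (Cy5) and -1.41 (Cy3) at day 10. MiR-290 heads the cluster. Both day 10 values lay below both day 3 values, and the means differed by -2.02, a 4.06-fold lower ratio. After centring the day 3 values were -0.04 and -0.16 and the day 10 values -0.69 and -1.03. The pairs still did not overlap, but the difference of -0.76 was under 2-fold.

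1org-291-s and 1org-291-as carry the number of the same hairpin and opposite arm marks. 1org-291-s read 0.70 and 1.80 at day 3 and -1.29 and -0.86 at day 10 (Cy5 first here and in the sentences that follow). Its difference of -2.33 (5.01-fold lower) became -1.07 after centring, when the day 3 values were 0.50 and 0.38 and the day 10 values -0.77 and -0.48. This was the only member of the cluster above the median on both day 3 arrays and below it on both day 10 arrays. 1org-291-as read 1.09 and 0.94 at day 3 and -0.46 and -0.80 at day 10, a difference of -1.64. After centring its pairs overlapped, with 0.89 and -0.48 at day 3 and 0.06 and -0.42 at day 10, and the difference was -0.38. After centring 1org-291-s was called and 1org-291-as was not, and the difference between them was not tested. Without the Cy5 array of day 10, the centred difference of 1org-291-s was -0.92 and its call was lost. Without the Cy5 array of day 3, that of 1org-291-as turned to 0.30.

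1org-292-as read 4.24 in Cy5 but 1.31 in Cy3 at day 3, and -1.17 and -0.65 at day 10. Its mean difference was -3.68 (12.8-fold lower). After centring the difference rests mostly on the single Cy5 value at day 3, which was far above every other value of the cluster. Without that array the difference was -2.22 as deposited and -0.35 after centring, against -2.43 centred with it, and the centred call was lost. Without the Cy3 array of day 3 it was -5.15, and -4.50 after centring. The probe 1org-292-s, of the same hairpin and no member, read -0.08 on that same array.

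The 4 cluster probes that are no members, 1org-292-s, 1org-293, 1org-294 and 1org-295, gave a median difference of -1.82 as deposited and -0.56 after centring. With them, 6 of the 8 cluster probes were called lower at day 10 than at day 3 as deposited, beside 41.5% of all probes. After centring 2 were, 1org-291-s and 1org-292-as, beside 13.5%. None of the 8 was called higher or lower than naive at day 3 or day 10 after centring. 1org-294, whose 3' arm has the seed AAGUGCU, read -2.53 in Cy5 and 0.77 in Cy3 at day 10, so that its arrays lay on opposite sides of 0. Overnight all 8 were at least 2-fold lower as deposited (-2.87 to -1.29), on an array with a median of -1.75 and 73.1% of all probes called lower. After centring only 1org-291-s was, at -1.12.

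**Figure D3:**
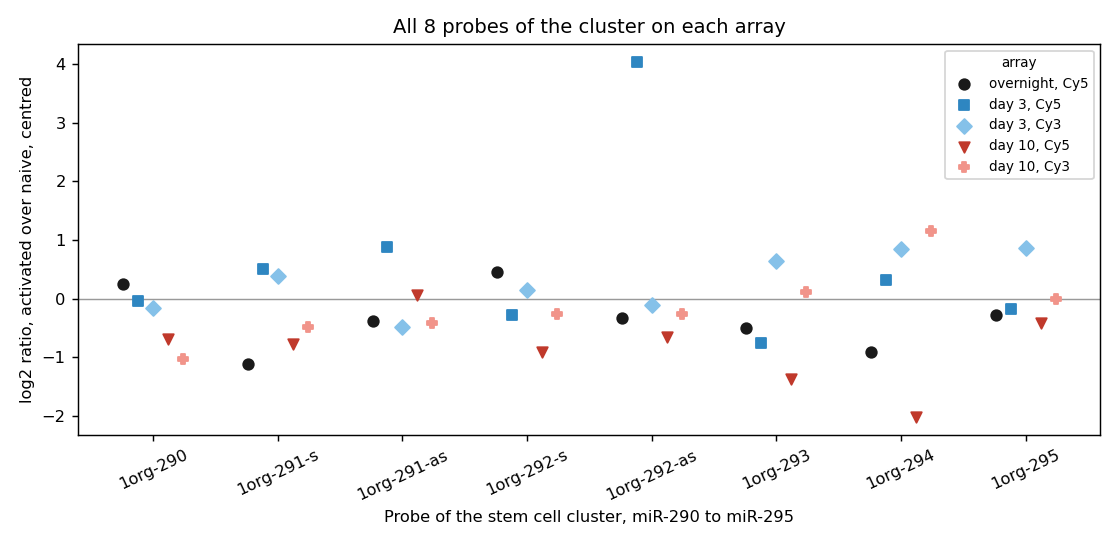
Log2 ratio of activated over naive RNA after centring (vertical axis) for the 8 probes of the stem cell cluster (horizontal axis), with a symbol for each of the 5 arrays. Most values lie within about 1 of the array median, with 1org-292-as at 4.04 on the day 3 Cy5 array and 1org-294 at -2.02 and 1.16 on the day 10 arrays among those farther out.

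The probes numbered as the pair beside Gnas, 1org-298 and 1org-296, differed in pattern, and the annotation does not establish that both read that pair. 1org-298 read 3.11 and 3.81 at day 3 and -0.51 and -0.47 at day 10. The day 3 mean of 3.46 is an 11.0-fold higher ratio than in naive cells, rank 8 of 171, and the day 10 mean was -0.49. A gap of 3.58 separated the pairs, and the difference was -3.95 (15.5-fold lower). After centring it read 2.91 and 2.39 at day 3 and at day 10 0.00 and -0.09, which is on the array medians. The overnight value was -0.97, or 0.78 after centring, below both day 3 arrays in either setting. With the activated RNA in Cy5 at both times, day 3 was above overnight by 4.08, and by 2.13 after centring.

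As 1org-298 is also annotated with the gene of miR-299, the probe 1org-299 was set beside it. 1org-299 read 0.28 and 1.57 at day 3 and -1.03 and -0.38 at day 10, with a mean of 0.12 after centring at day 3. Its day 3 values lay below both values of 1org-298 and close to the array medians of 0.20 and 1.42.

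1org-296 read 0.48 and 1.69 at day 3 and 0.93 and 1.20 at day 10. As deposited the pairs overlapped and the means, 1.08 and 1.07, differed by -0.02. After centring the day 3 values were 0.28 and 0.27 and the day 10 values 1.44 and 1.59, which did not overlap and differed by 1.24 (2.36-fold higher at day 10). The direction of the change between times therefore depends on the centring, while the mean at day 10 was at least 2-fold above naive in both settings (rank 15 of 171). As deposited that call was lost without the Cy3 array, which left 0.93. Overnight it was at -2.20, or -0.45 after centring. At day 10 1org-296 was called higher than naive and 1org-298 was not, in both settings, and the difference between the probes was not tested.

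1org-297 read 3.41 and 3.09 at day 3, a mean of 3.25 (9.52-fold above naive, rank 11), and -0.07 and -0.70 at day 10. The difference was -3.64 (12.4-fold lower), and -2.38 after centring, when the day 3 values were 3.21 and 1.67 and the day 10 values 0.44 and -0.32. It was the only member at least 2-fold above naive overnight, at 1.24 as deposited and 2.98 after centring (rank 6 of 171). With the activated RNA in Cy5 at both times, its day 3 value was above the overnight value by 2.18 as deposited and by 0.23 after centring, so most of the distance between these times went with the array medians. Without the Cy5 array of day 3 the centred difference between days 10 and 3 was -1.61. With the dye part of the day 3 and day 10 pairs taken off, the overnight value was 1.00 (just under 2-fold) and 2.41 after centring.

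Comparing days 10 and 3 within a dye orientation leaves out dye effects that are the same at both times. After centring, 1org-298 differed by -2.91 in Cy5 and -2.47 in Cy3. 1org-297 differed by -2.77 and -1.99, and 1org-296 by 1.16 and 1.32. These 3 gave the same direction and at least a 2-fold change in each orientation. Other probes did so too, such as 1org-150 (5.24 and 5.20) and 1org-132 (-3.41 and -2.69). The share of all probes that did so was not counted. As this contrast was in view when the members were chosen, nothing is read from the count. 1org-290 (-0.65 and -0.87) and 1org-291-s (-1.27 and -0.86) also kept their direction. 1org-292-as differed by -4.70 in Cy5 and -0.16 in Cy3, and 1org-291-as by -0.83 and 0.06, so neither gave a change of both arrays. The medians over all probes were 0.03 and 0.11. As deposited, 1org-296 was at 0.45 in Cy5 and -0.48 in Cy3, and the 6 other members were negative in both. The as-deposited medians over all probes were negative as well, -0.68 in Cy5 and -1.69 in Cy3. The share of all probes negative in both was not counted.

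**Figure D4:**
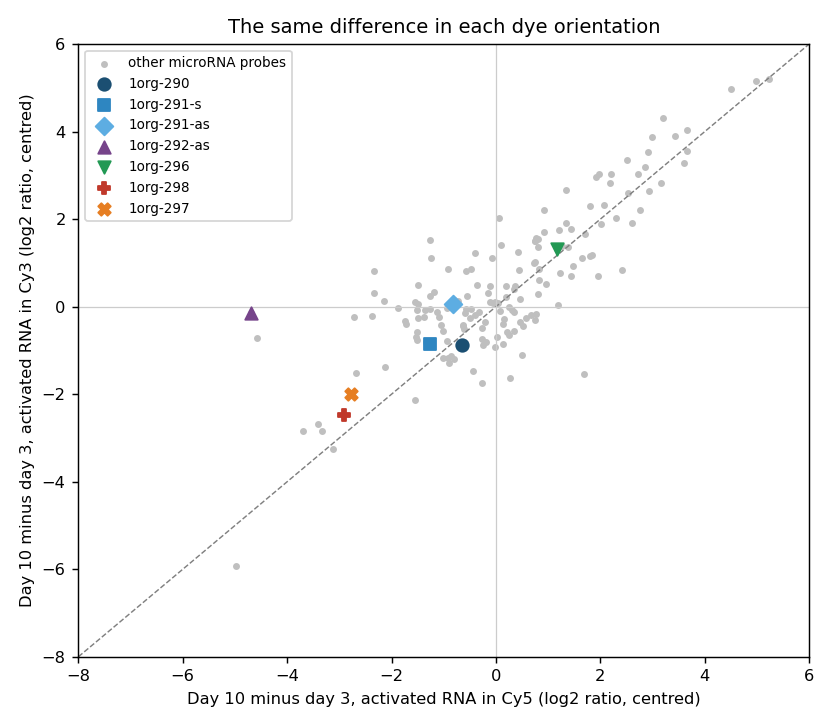
Difference of day 10 and day 3 log2 ratios after centring, with the activated RNA in Cy5 (horizontal axis) and in Cy3 (vertical axis). Each point is 1 of 171 microRNA probes and the dashed line marks equal values; 1org-298, 1org-297 and 1org-296 lie near it, and 1org-292-as lies at -4.70 and -0.16.

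The dye part, the part of a probe's value that does not turn with the dyes, was tested with limma over the 5 arrays (coefficients for each time and for the dye, adjusted over 171 probes). It comes from the same day 3 and day 10 arrays that were in view when the members were chosen. The counts of members passing are therefore a description and not independent of the choice. As deposited, 0 of the 7 members passed, beside 13.5% of all probes, with dye parts from -0.38 (1org-291-s) to 0.60 (1org-292-as, SE 0.32, adjusted p = 0.22 by limma). After centring, 1 member passed, 1org-292-as (0.94, SE 0.27, limma adjusted p = 0.0063), beside 15.2% of all probes. The part was 2.07 in the day 3 pair, against -0.20 in the day 10 pair. For 1org-298 the centred dye part was 0.15 (adjusted p = 0.83 by limma), for 1org-296 it was -0.03 (adjusted p = 0.98 by limma), and for 1org-297 it was 0.58 (adjusted p = 0.17 by limma). The SE was the same for every probe because limma found no spread of variances between probes. As the overnight array has its own term, that SE reflects how far the day 3 and day 10 dye parts disagreed, pooled over all probes. These p-values therefore measure a spread between arrays only, which may be technical. For 1org-292-as the limma result does not show a dye part repeated in both pairs. Of the other cluster probes, 1org-294 passed in both settings (-1.26 and -0.92, limma adjusted p = 0.0013 and 0.0069) and 1org-293 as deposited (-1.06, limma adjusted p = 0.010). The dye parts of 1org-294 had the same sign in both pairs but differed in size. They were -0.87 at day 3 and -1.65 at day 10 as deposited, and -0.26 and -1.59 after centring.

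The probes most like each pattern were those at the smallest Euclidean distance over the 5 centred arrays. Nearest to 1org-298 were 2org-212 (distance 0.72), 1org-132 (0.86) and 1org-183 (1.95), where the median distance to all others was 4.36. MiR-132 and miR-212 are made from neighbouring genes. 2org-212 read 3.38 and 2.90 at day 3 and 0.05 on each day 10 array after centring, against 2.91 and 2.39, and 0.00 and -0.09, for 1org-298. Nearest to 1org-297 were 1org-23b (1.11), 1org-207 (1.21) and 1org-132 (1.92), with a median distance of 5.17. 1org-207 read 2.70 overnight after centring, where 1org-297 read 2.98. Nearest to 1org-296 were 1org-130b (1.22), 2org-147 (1.22) and 1org-27a (1.28), with a median of 3.25. 1org-130b read 1.67 and 1.82 at day 10 after centring. For the mean of the 4 stem cell cluster members the nearest were 2org-99 (0.82), 1org-300 (0.82) and 2org-139 (0.86), with a median of 2.95. That mean includes the single high value of 1org-292-as, 4.04 on the day 3 Cy5 array. On that array 1org-290, 1org-291-s and 1org-291-as read -0.04, 0.50 and 0.89 after centring. The nearest probes without 1org-292-as were not computed.

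**Figure D5:**
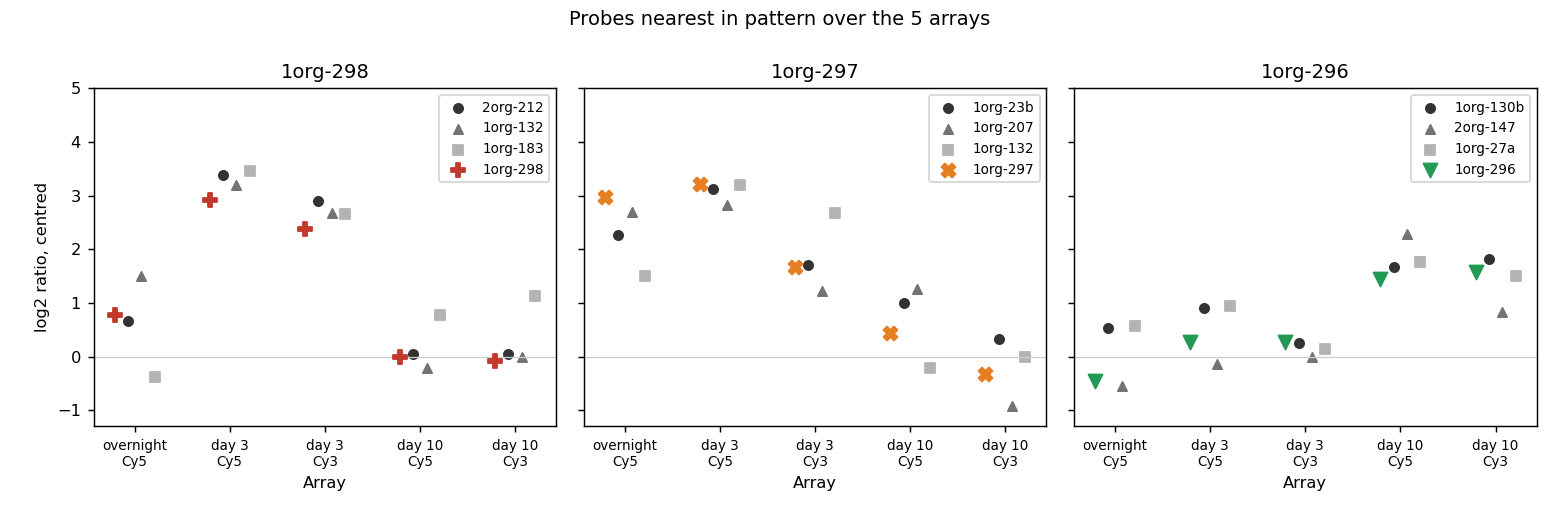
Centred log2 ratio of activated over naive RNA (vertical axis) on the 5 arrays (horizontal axis) for 1org-298, 1org-297 and 1org-296 in colour, each with its 3 nearest probes in grey. 1org-298 lies beside 2org-212 on every array, at a distance of 0.72 over the 5.

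The list of seed relatives of the stem cell cluster, fixed by number, held 7 probes, 2org-17-5p, 1org-20, 1org-93, 1org-106a, 1org-106b, 2org-106 and 1org-302. By number it was not complete: mouse miR-105 also has AAGUGC at bases 3 to 8, and 2org-105, which carries that number, was not on the list. The sequence that 2org-105 reads is not known. After centring, day 10 minus day 3 of 2org-105 was -1.555 in Cy5 and 0.111 in Cy3. After centring, 5 of the 7 were called higher at day 10 than at day 3 and 0 lower, beside 28.1% and 13.5% of all probes. Their median difference was 1.18, while the 8 cluster probes had a median of -0.66 and all probes 0.04. Overnight their median was 0.73 as deposited and 2.48 after centring, the latter with 1org-20 at 3.20 and 2org-17-5p at 3.90, against -2.11 and -0.36 for the cluster. As deposited, 1 of the 7 was higher at day 10 than at day 3 and 0 lower, beside 12.9% and 41.5% of all probes, with a median of -0.08. 1org-302, the other stem cell family, had its arrays on opposite sides of 0 at both times (-0.41 and 2.58 at day 3, -1.93 and 0.92 at day 10).

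Another imprinted region, on chromosome 12, was represented by 6 probes, 1org-127, 1org-134, 1org-136, 1org-154, 1org-299 and 1org-300. After centring, 1 of them was called higher than naive at day 3 and 0 at day 10, and 1 was called lower at day 10 than at day 3, around medians of 0.16, -0.22 and -0.44. The shares of all probes with these calls were 15.2%, 14.6% and 13.5%. As deposited, 4 of the 6 were called lower at day 10 than at day 3 (median -1.70), beside 41.5% of all probes. As deposited, 3 of the 6 were called higher than naive at day 3 and 6 of 6 lower overnight, beside 38% and 73.1%. The probe 1org-301 had been put on this list and was taken off after the files were read, because its gene lies within Ska2 on chromosome 11; it read 2.18 and 2.86 at day 3.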

How the data were processed

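The authors' deposited table gives 1 value per probe and array, in both signs, read as log2 ratios of channel 2 (Cy5) over channel 1 (Cy3). Per the labels, dyes and times were taken from the source name of each channel, and the label protocols give no scanner, image analysis or normalization (not given in the sources used here). Arrays with activated RNA in channel 1 were multiplied by -1. Of 178 probes, 7 for other small RNAs were left out, and 171 microRNA probes were used, with 0 missing values. Arrays were centred on their medians as the alternative setting. The dye part was tested with limma 3.58.1 in R 4.3.3 (lmFit, eBayes, Benjamini-Hochberg threshold 0.05, all 171 probes), after a check on simulated data. Values were given for all members, probes numbered 290 to 298 and 302, the 3 nearest probes of each pattern (some by distance alone) and up to 3 probes of each list, whose other probes are listed by ID. Those of 2org-105 were added beside the seed relatives. In the platform annotation, 61 probes had 1 gene, 1 had several and 116 had none. Members and lists were chosen with earlier results of these data known. Sequences are from RefSeq, GRCm38.p6. The cell types could not be checked by level, since only ratios are given.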

Additional observations from a re-analysis of the deposited data

Results flagged for a closer look

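In 6 of the 7 members both day 3 arrays lay above 0 and both day 10 arrays below it, as deposited: 1org-290 (day 10 minus day 3, -2.02), 1org-291-s (-2.33), 1org-291-as (-1.64), 1org-292-as (-3.68), 1org-297 (-3.64) and 1org-298 (-3.95). The difference was not tested, and it is the contrast that was in view when the members were chosen. Over all 171 probes 28.7% had their pairs on opposite sides of 0 in either direction. The share in the members' direction alone was not counted. After centring 1 member, 1org-291-s, had its pairs on opposite sides of 0, beside 17% of all probes in either direction. The array medians moved in the members' direction: both day 3 medians were above 0 and both day 10 medians below. Their part in each value is what centring takes off. No time had enough arrays for an outlier test.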

How the results depend on the processing

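The members' median difference between days 10 and 3 was -2.33 as deposited, -1.07 with arrays centred on the microRNA median or also brought to the same spread (-1.07), -1.15 centred over all probes, and from -2.57 to -1.78 leaving out single arrays. In these 3 centred settings 1 member was higher. At day 3 the median of 1.25 became 0.44, 0.53 (all probes) and 0.36 (same spread), with 2, 3 and 2 members higher, and 1.69 without the Cy5 array or 1.09 without the Cy3 array. At day 10 the median of -0.63 became -0.18, -0.18 and -0.27, with 0, 0 and 1 members lower. A 1.5-fold rule gave 4 lower, and leaving out an array gave 1 to 3 lower and 0 to 1 higher. Overnight the median of -2.08 became -0.34, -0.35 and -0.43 with 1 lower in each, -1.83 with the dye part taken off (0 higher), and -0.42 with both (2 lower). 1org-290 changed sign overnight, from -1.50 to 0.25, 0.24 and 0.32, and 0.14 with the dye part off as well. The members' median dye part was -0.19, or 0.15 centred, where 1 passed. Over all probes, limma gave 15 probes with a higher and 75 with a lower ratio at day 10 (22 and 71 by the size rule), and 37 and 13 after centring (48 and 23). Against naive cells the centred fit gave 31 and 36 at day 3, and 24 and 5 at day 10. The centred fit and the centred values without single arrays were chosen after seeing the data. No paired analysis was possible because the labels give no replicate numbers; the dye orientation stood in for it.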
